A study of Mus musculus with 18 samples.

Results

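The cytosolic ribosomal protein genes are the genes for the proteins of the ribosome that works in the cytoplasm. They were chosen by name: protein-coding genes whose mouse symbol is Rpl or Rps followed by digits, with at most a trailing letter or an l-suffix that marks a paralogue, together with the stalk genes Rplp0, Rplp1 and Rplp2 and with Rpsa. Symbols of pseudogenes and of the Rps6k kinases were left out, and the rule itself uses symbols and biotype alone. The rule found 83 genes among the 55401 genes counted, of which 30 encode proteins of the small subunit, 43 proteins of the large subunit, 3 proteins of the stalk and 7 paralogues of a more widely used ribosomal protein. Rps3a1 and Fau also encode ribosomal proteins but fall outside the naming rule, and their values are given beside those of the members.

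A ribosome joins a small subunit, which reads the mRNA, to a large subunit, which forms peptide bonds, and each subunit is built in the nucleolus from ribosomal RNA and proteins that are needed in near-equal amounts. Most of these mRNAs begin with a cytosine followed by a run of pyrimidines, the 5′ terminal oligopyrimidine (TOP) element, through which mTORC1 signalling and the LARP proteins set their translation and stability, while ETS-family factors, YY1 and Myc are known to act on their transcription. Ribosomal protein mRNAs are among the most abundant in epithelial cells, including cholangiocytes, the cells that line the bile ducts.

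RNA was measured in 18 libraries of polyadenylated RNA from primary cholangiocytes, in 6 groups of 3 libraries. The untreated groups were wild-type (WT) mice and mice with polycystic liver disease (PLD), each sampled 1 month and 2 months after induction with tamoxifen. In the other groups PLD mice had received CPTH6, known as an inhibitor of histone acetyltransferases, or ML324, known as an inhibitor of histone demethylases, and their library titles give 3 months. The labels used here name no inactivated gene, no Cre driver and no dose, and do not say whether replicates were separate animals, so a p-value here covers the spread among these libraries alone, part or all of which may be technical. Cells were released from the biliary tree with enzymes and captured with beads against EpCAM, a surface protein of epithelia. Libraries held 16345740 to 29277311 counts. All 10 cholangiocyte markers of the list used were detected in every group, and so were all 10 markers each of endothelium, stellate cells and fibroblasts, macrophages, hepatocytes and lymphocytes.

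The start of the gene carries the TOP element, so the annotated starts of some members are shown first. RefSeq starts were held for 63 of the 83 members (75 starts, build GRCm38.p6), and for each of the genes below the sense strand is written from 15 bases before the start to 15 bases from the start onwards, 30 bases in all. Capitals mark a run of at least 8 pyrimidines that touches the 5 bases on either side of the start. Where a gene had several starts, the start with the longest pyrimidine run was chosen for display. Members with such a run are listed first.
Rps9 (chr7:3704026-3704055, plus strand): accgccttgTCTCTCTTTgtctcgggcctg
Rpl18 (chr7:45718056-45718085, plus strand): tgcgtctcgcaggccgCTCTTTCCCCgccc
Rps27 (chr3:90213634-90213663, minus strand): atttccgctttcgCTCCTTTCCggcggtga
Rps6 (chr4:86857353-86857382, minus strand): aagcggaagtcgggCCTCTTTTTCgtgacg
Rplp2 (chr7:141447636-141447665, plus strand): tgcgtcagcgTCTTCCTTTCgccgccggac
Rpl35a (chr16:33056467-33056496, plus strand): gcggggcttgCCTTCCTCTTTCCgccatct
Rpl38 (chr11:114668565-114668594, plus strand): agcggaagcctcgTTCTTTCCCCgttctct
Rps27l (chr9:66946071-66946100, plus strand): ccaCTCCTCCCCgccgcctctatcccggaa
Rpl41 (chr10:128549154-128549183, minus strand): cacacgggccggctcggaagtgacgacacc
Rps21 (chr2:180257364-180257393, plus strand): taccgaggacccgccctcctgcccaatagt
Rpl7l1 (chr17:46782642-46782671, minus strand): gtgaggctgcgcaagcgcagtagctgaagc

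Such a run lay at a start of 24 of the 63 members (38.1%) and of 2937 of 26960 other genes in the same RefSeq table (10.9%). For Rpl41, Rps21 and Rpl7l1 these letters were not found at the annotated start, which says nothing of the start used in these cells. In the 300 bases around the start (250 before and 50 after), searched on both strands, the letters CCGGAAG, the core of many ETS-family sites, stood in 25 of 63 members (39.7%) and in 9.86% of the other genes. The letters AAGATGGC, found in many YY1 sites, stood in 6 members (9.52%) and in 3.17% of the other genes. In PLD against WT at 2 months, the comparison with the most calls, the median log2 fold change was 0.63 for the 24 members with the run, 0.61 for the 36 tested members without it and 0.60 for the 20 members with no start in the table.

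Levels are given as CPM, a gene's counts relative to the scaled total of its library, and between genes as CPM per kilobase (kb) of mRNA. The mRNA length is that of an annotated protein-coding transcript, the shortest of those annotated with the best principal rank. It is long for some members, such as 2045 bases for Rpl5 and 1908 for Rps3. The transcripts used in these cells were not examined, so levels per kb depend on that choice. Most members were abundant and close to each other. The median member stood at 475.6 CPM per kb over the 18 libraries, and 74 of 83 members exceeded 100 CPM per kb. Rplp1, a stalk protein that helps recruit elongation factors, led with 1247 CPM per kb, followed by Rpl10, which joins the large subunit late and completes its catalytic region, with 1178, and Rps12, a small subunit protein, with 1143 CPM per kb. After CPTH6, Rpl10 stood above Rplp1 (1666 against 1528 CPM per kb), so this order does not hold in every group. The paralogues stood lower: Rps27l at 106 CPM per kb, Rpl22l1 at 103 and Rpl7l1 at 42.9.

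**Figure D1:**
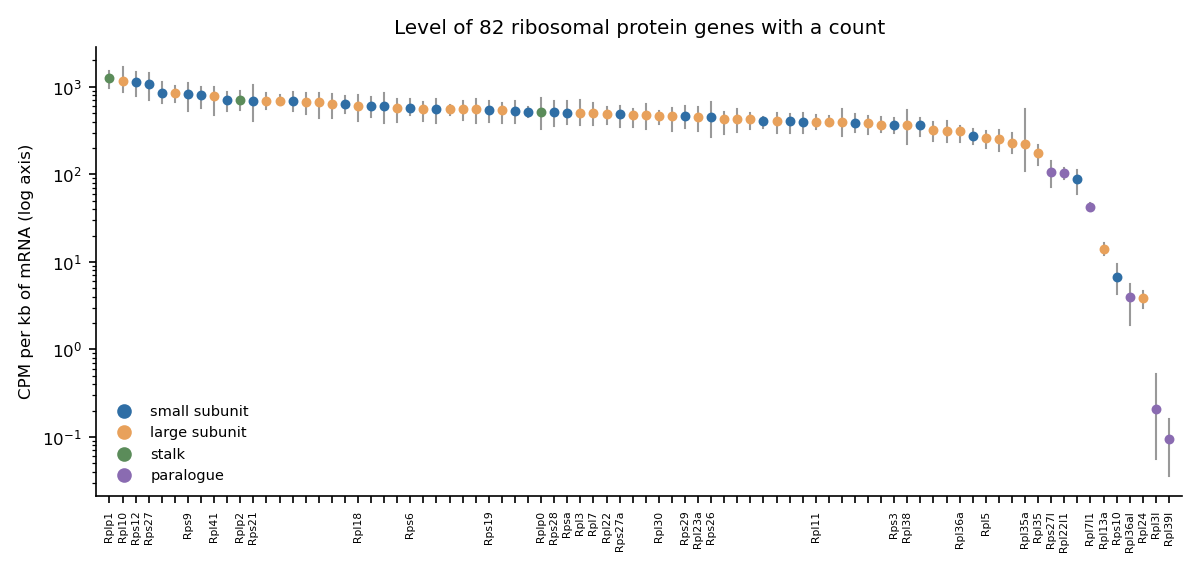
Mean level of the 82 members with a count, in CPM per kb of mRNA on a log axis, with genes ordered by level along the horizontal axis. Points are means over 18 libraries, coloured by role and labelled where the text names the gene, and grey lines run from the lowest to the highest of the 6 group means. 74 members lie above 100 CPM per kb, and 6 of those shown lie under 20.

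Of the 7 members under 20 CPM per kb, 3 are paralogues known from other tissues. Rpl10l, a testis paralogue of Rpl10, had 0 counts in every library, Rpl39l, also a testis form, had 21 counts in all 18 libraries together, and Rpl3l, a muscle form of Rpl3, had 113 counts. These did not pass the filter on low counts, so 80 of 83 members were tested. Rpl13a, Rps10, Rpl36al and Rpl24, at 13.98, 6.72, 3.93 and 3.86 CPM per kb, are the other 4. In each of these, 35.4%, 28.7%, 24.5% and 47.0% of the exon bases are also exon of another annotated gene (Gm45713, RPS10-NUDT3, Gm49383 and Gm28037 lead those partners), and the counting left out reads that fall on more than one gene. The counts assigned to these partners over all libraries were 0, 0, 0 and 2. The levels of these 4 members are therefore uncertain. Rpl35 and Rpl23a also share 66.2% and 62.3% of their exon bases with other genes, at 176 and 458 CPM per kb. Named pseudogenes exist for 60 of the members, and reads that fit a gene and its copy equally well were not counted.

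In all, the members took 2.14% to 3.70% of the counts of a library. In WT the mean share was 2.44% ± 0.256 (SD, n = 3) at 1 month and 2.32% ± 0.199 at 2 months. In PLD it was 2.74% ± 0.0908 and 3.32% ± 0.279, and with compound 3.50% ± 0.231 (CPTH6) and 3.36% ± 0.402 (ML324). At 2 months the PLD libraries, with 3.21%, 3.64% and 3.12%, all lay above the WT libraries, with 2.29%, 2.14% and 2.54%. At 1 month WT had 2.54%, 2.63% and 2.15% and PLD 2.73%, 2.83% and 2.65%, so the groups did not overlap there either, but the highest WT library came close to the lowest PLD library. In bulk samples such as these, a change in the mix of cell types and a change in RNA per cell cannot be told apart.

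**Figure D2:**
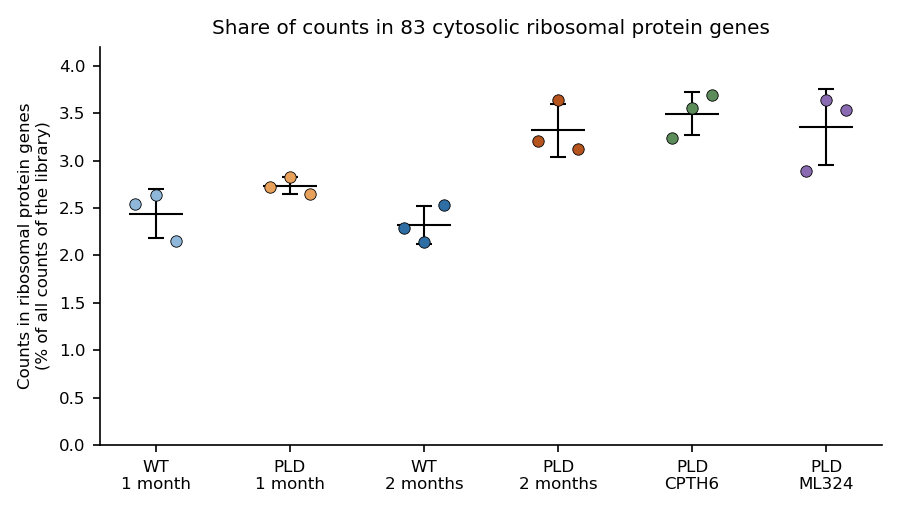
Percent of each library's counts that fall in the 83 ribosomal protein genes, by group. Points are libraries in order of replicate number, the bar is the mean and the whiskers are ± 1 SD with n = 3. PLD libraries at 2 months lie between 3.12% and 3.64% and WT libraries of that time between 2.14% and 2.54%.

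Libraries differed within groups, and members moved together there too. WT replicate 3 at 1 month was the lowest of its group for 77 of the 80 tested members, with a median of 7.79 log2 CPM over the members against 8.26 and 8.31 in the other replicates. The same library held more of the cholangiocyte markers (8782 CPM summed over 10 genes against 3270.4 and 3177) and fewer of the endothelial markers (2292 CPM against 3963 and 5900.1). It also held fewer of the stellate cell and fibroblast markers (2427 CPM against 13533 and 14915) and more of the hepatocyte markers (2211 CPM against 521 and 590). ML324 replicate 1 was the lowest of its group for 75 members, PLD replicate 2 at 2 months the highest for 73, and WT replicate 1 at 2 months the lowest for 67. WT replicate 1 at 2 months also had a count in 40039 genes, against 22780 to 30332 in the other libraries. Results that touch the WT libraries are given with and without them where they differ.

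Across the 6 groups, the ratio of the highest to the lowest group mean had a median of 1.71 over the tested members, was over 2 for 12 of them and under 1.5 for 13. WT at 2 months was the lowest group for 65 of the 82 members with a count. CPTH6 was the highest group for 51 of those members, PLD at 2 months for 14 and ML324 for 14. The steadiest member was the paralogue Rpl7l1, with a ratio of 1.22, and the most variable was Rpl35a, with 5.08, from 54.0 CPM in PLD at 2 months to 274 CPM after CPTH6.

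The first comparison asked whether the ribosomal protein genes differed between PLD and WT at 1 month. Here 1 of 80 tested members was called higher and 0 lower (adjusted p under 0.05, edgeR quasi-likelihood test with Benjamini-Hochberg adjustment over all genes), while 5.03% of all 17749 genes tested were called, 3% higher and 2.02% lower. The median log2 fold change was 0.15 over the members and -0.05 over all genes, and 73 members had a positive sign. For 20 members the 3 PLD libraries lay above the 3 WT libraries, a pattern held by 15.1% of all genes.

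The called member was Rps27l, the paralogue of Rps27 that is known as a target of p53. It had 43.2, 39.0 and 32.5 CPM in WT and 51.2, 60.5 and 51.3 CPM in PLD. All PLD values exceeded all WT values, and the log2 fold change was 0.49 ± 0.12 (SE, adjusted p = 0.0485). The call was kept in 4 of 14 alternative settings, with adjusted p from 0.0114 to 0.218, and was lost on leaving out any of the other 5 libraries of the comparison. Rplp0, the base of the stalk, was not called at 0.59 ± 0.16 (adjusted p = 0.0613), with 489.9, 463 and 391 CPM in WT and 692, 643 and 716 in PLD, groups that did not overlap. Without WT replicate 3 the median of the members was 0.00 in place of 0.15, Rps27l was called at 0.39 and Rps29, a small subunit protein, was called lower at -0.37, a gene named after its value was seen. In these libraries the 10 cholangiocyte markers summed to 3177 to 8782 CPM in WT and 7616 to 10229 CPM in PLD, which overlapped. Of these 10 cholangiocyte genes, 4 were nevertheless called higher in PLD and 0 lower, with a median log2 fold change of 0.58, where 3% of all genes were called higher. The sums of endothelial markers overlapped too, as did those of stellate cell and fibroblast markers. Hepatocyte markers summed to 521 to 2211 CPM in WT and 2368 to 3751 CPM in PLD, without overlap. The median log2 fold change over these 10 genes was however -0.24, with 0 called higher and 0 lower. Macrophage markers (566 to 1041 and 399.7 to 459.5 CPM) and lymphocyte markers (74.1 to 125 and 19.3 to 48.4 CPM) did not overlap either. The part of these cell types in the result was not tested.

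At 2 months the ribosomal protein genes were higher in PLD as a group. Of 80 tested members, 63 were called higher and 0 lower, where 40% of all genes tested were called, 19.7% higher and 20.3% lower. The median log2 fold change was 0.61, with quartiles of 0.50 and 0.74, against a median of -0.03 over all genes. In 72 members all PLD libraries lay above all WT libraries, against 26.1% of all genes, and in 1 member all lay below, against 29.3%. The called members came from every role: 23 of 30 small subunit genes, 35 of 43 large subunit genes, all 3 stalk genes and 2 of 4 tested paralogues.

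**Figure D3:**
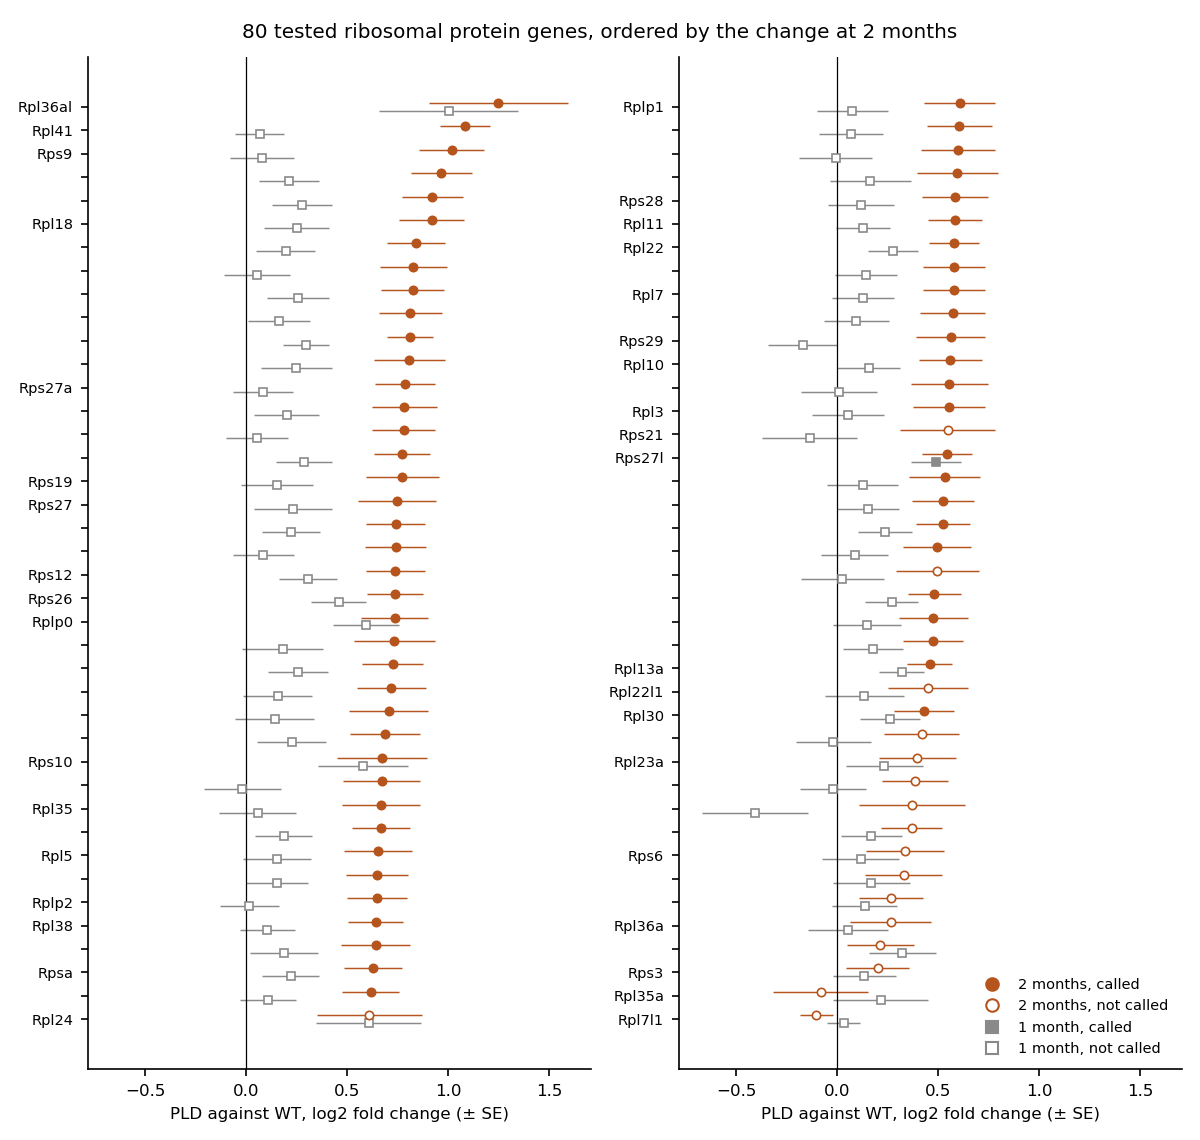
Log2 fold change of PLD against WT (± SE, n = 3 libraries per group) for the 80 tested members, ordered by the change at 2 months. Orange circles show 2 months and grey squares 1 month, filled where the gene passed an adjusted p of 0.05, with names for the genes named in the text. At 2 months 63 members are filled and 78 lie right of 0, and at 1 month 1 is filled.

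Rpl36al, Rpl41 and Rps9 led the members at 2 months. Rpl41 (chromosome 10), which encodes a very short basic peptide of the large subunit, had 207, 215 and 203 CPM in WT and 419, 459.9 and 428 CPM in PLD. The lowest PLD library was far above the highest WT library, and Rpl41 rose 2.12-fold (log2 fold change 1.08 ± 0.12, adjusted p = 0.00018). Rps9 (chromosome 7), a protein that joins the small subunit early in its assembly, had 368, 386 and 438 CPM in WT and 752, 939 and 695 CPM in PLD, which did not overlap, a rise of 1.02 ± 0.16 (adjusted p = 0.000868). Rpl36al, the paralogue of Rpl36a, had the largest estimate, 1.25 ± 0.34 (adjusted p = 0.015), but from 27, 16 and 27 counts in WT and 51, 50 and 41 in PLD.

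The stalk genes rose by similar amounts. Rplp0 changed by 0.73 ± 0.16, Rplp2 by 0.65 ± 0.15 and Rplp1 by 0.61 ± 0.18, each without overlap between the groups. Rpl5 and Rpl11, which outside the ribosome bind the p53 regulator Mdm2, rose by 0.65 ± 0.17 and 0.58 ± 0.13. Rps19, a gene of inherited red cell aplasia, rose by 0.77 ± 0.18, Rpsa, also known as a laminin receptor, by 0.63 ± 0.14, and Rps27a, made as a fusion to ubiquitin, by 0.79 ± 0.15. Beside the members, Fau, made as a fusion to a ubiquitin-like protein, rose by 0.89 ± 0.17 and Rps3a1 by 0.56 ± 0.16.

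Among called members the smallest rises were those of Rpl30 (0.43 ± 0.15) and Rpl13a (0.46 ± 0.11). 17 members were not called, of which Rpl7l1, known from precursors of the large subunit, and Rpl35a had negative values. Rpl7l1 stood at 60.3, 64.2 and 61.7 CPM in WT and 54.0, 57.9 and 59.3 CPM in PLD, without overlap and at -0.10 ± 0.08 (adjusted p = 0.335). Rps3, a protein at the mRNA entry of the small subunit, had 629.6, 714 and 709 CPM in WT and 719, 916 and 696 CPM in PLD, which overlapped, at 0.20 ± 0.16 (adjusted p = 0.332). Rps6, the substrate of the S6 kinases, was also not called, at 0.34 ± 0.19 (adjusted p = 0.182). Within the members, the change correlated weakly with the level per kb (Spearman rho 0.24 over 80 genes, which share libraries and depth) and not with mRNA length (rho -0.03).

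Cell type markers differed between the same libraries. Over 10 endothelial markers the summed level was 7663 to 13820.0 CPM in WT and 548 to 1400.1 CPM in PLD at 2 months, and over 10 cholangiocyte markers 2262 to 4484 CPM in WT and 11687 to 13329 CPM in PLD. Hepatocyte markers stood at 670.0 to 947 CPM in WT and 2628 to 5642 CPM in PLD, stellate cell and fibroblast markers at 5595 to 12283 and at 3212 to 7359 CPM, and none of these markers was at 0 in a group. When the mean endothelial level was added to the fit, a setting chosen after the data were seen and whose values lay for 81.7% of their variance between the groups, 14 members were called in place of 63, 13 of them shared, and the median was 1.24. Leaving out WT replicate 1 gave 42 called members and a median of 0.56.

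Other genes of ribosome production were taken from lists. Of 20 mRNAs of the TOP class that do not encode ribosomal proteins, 15 were called higher and 0 lower at 2 months, with a median of 0.63, close to that of the members. Among them the translation factor genes Eif3f (0.96 ± 0.14) and Eef1b2 (0.81 ± 0.12) and the poly(A)-binding protein gene Pabpc1 (0.93 ± 0.13) rose. Of 50 assembly and rRNA processing factors, 25 were called higher and 3 lower, with a median of 0.33. In that list Eif6, which keeps new large subunits from joining too early, rose by 1.53 ± 0.15 from 82.5 ± 6.70 to 235 ± 6.25 CPM, Nmd3, which exports them from the nucleus, rose by 0.77 ± 0.12, and Mdn1, a large remodelling ATPase, fell by 0.67 ± 0.10.

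The ribosomes of mitochondria, which have their own proteins, gave a lower median: of 76 tested genes 27 were called higher and 1 lower, with a median of 0.24. For these lists too, 40% of all genes were called in this comparison, 19.7% higher and 20.3% lower, and the difference between lists was not tested. Of 13 genes of RNA polymerase I transcription, 2 were called higher and 0 lower. One of the former was Polr1d, a subunit shared with RNA polymerase III, at 0.62 ± 0.14. Of 26 initiation factors, 11 were called higher and 1 lower, Eif4g3 at -1.07 ± 0.22. Of 22 genes of mTORC1 and TOP mRNA control, 5 were called higher and 2 lower, and like the RNA polymerase I list this is no larger a share than that of all genes called. Among them were Sesn2, a stress-induced inhibitor of mTORC1, at 0.72 ± 0.15 and its relative Sesn1 at -0.77 ± 0.15. In the Myc network 3 of 10 were called higher and 2 lower, the Myc antagonists Mnt (1.02 ± 0.15) and Mxd1 (1.22 ± 0.24) among the former. At 1 month 11 of the 50 assembly and rRNA processing factors had been called higher in PLD and 0 lower, with a median of 0.26. Of all genes 3% were called higher at that time. In the TOP list 0 genes were called at 1 month, and in the mitochondrial list 1 was called higher and 0 lower.

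The change with time was asked within each genotype. In PLD, 4 members were called higher at 2 months than at 1 month and 0 lower, with a median of 0.31 over the members. Of all genes 9.61% were called, 4.38% higher and 5.23% lower. The 4 members make up 5% of those tested, near the background of genes called higher. Among the 4 were Rps9 (0.64 ± 0.16) and Rpl41 (0.57 ± 0.12). For both, all PLD libraries at 2 months lay above all PLD libraries at 1 month. In 48 members all PLD libraries at 2 months lay above all at 1 month, against 19.5% of all genes. Over the same libraries 9 of 10 endothelial markers were called lower (median -2.08), with summed levels of 2446 to 4764 CPM at 1 month and 548 to 1400.1 CPM at 2 months, and their part in this result was not tested beyond the covariate fit. Without any of the 6 PLD libraries in turn, 0 or 1 of the 4 was called, and a fit of those 6 libraries alone called 24 members higher and Rpl35a, at -0.50, lower.

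In WT, 0 members were called in either direction by edgeR, where 0.0507% of all genes were called (0.0113% higher, 0.0394% lower), and 3 members had an unadjusted p under 0.05. All 2-month libraries lay above all 1-month libraries in 2 members, against 9.35% of all genes, and below in 3, against 7.38%. The median over the members was -0.18, and 68 had a negative sign. DESeq2 called Rpl41 lower at -0.46. Without WT replicate 3 at 1 month the median was -0.32, and Rps29, Rpl35, Rpl38 and Rpl41 were called lower, at -0.62, -0.57, -0.60 and -0.55, genes named after their values were seen.

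Whether the difference between genotypes was larger at 2 months than at 1 month was tested as an interaction. It was called positive for 2 members and negative for 0, where 5.68% of all genes were called, 2.55% positive and 3.13% negative, with a median of 0.47 over the members. These 2 make up 2.5% of the members tested, near the 2.55% of all genes called positive. The 2 members were Rpl41 (1.02 ± 0.17, adjusted p = 0.016) and Rps9 (0.94 ± 0.23, adjusted p = 0.0403), and Fau beside them (0.92 ± 0.23, adjusted p = 0.0459). At 1 month Rpl41 had stood at 319.6, 281 and 244 CPM in WT and 299, 328 and 269 CPM in PLD, which overlapped, and Rps9 at 538, 521 and 392 and at 532, 541 and 480.1 CPM. Without WT replicate 3 at 1 month 31 members were called positive, and with DESeq2 13. Only 1 member was called in 10 of the 12 fits that leave out a library and with the replicate block, and 0 with the endothelial marker mean as a covariate. In the same interaction 9 of 10 endothelial markers were called negative, with a median of -3.25.

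**Figure D4:**
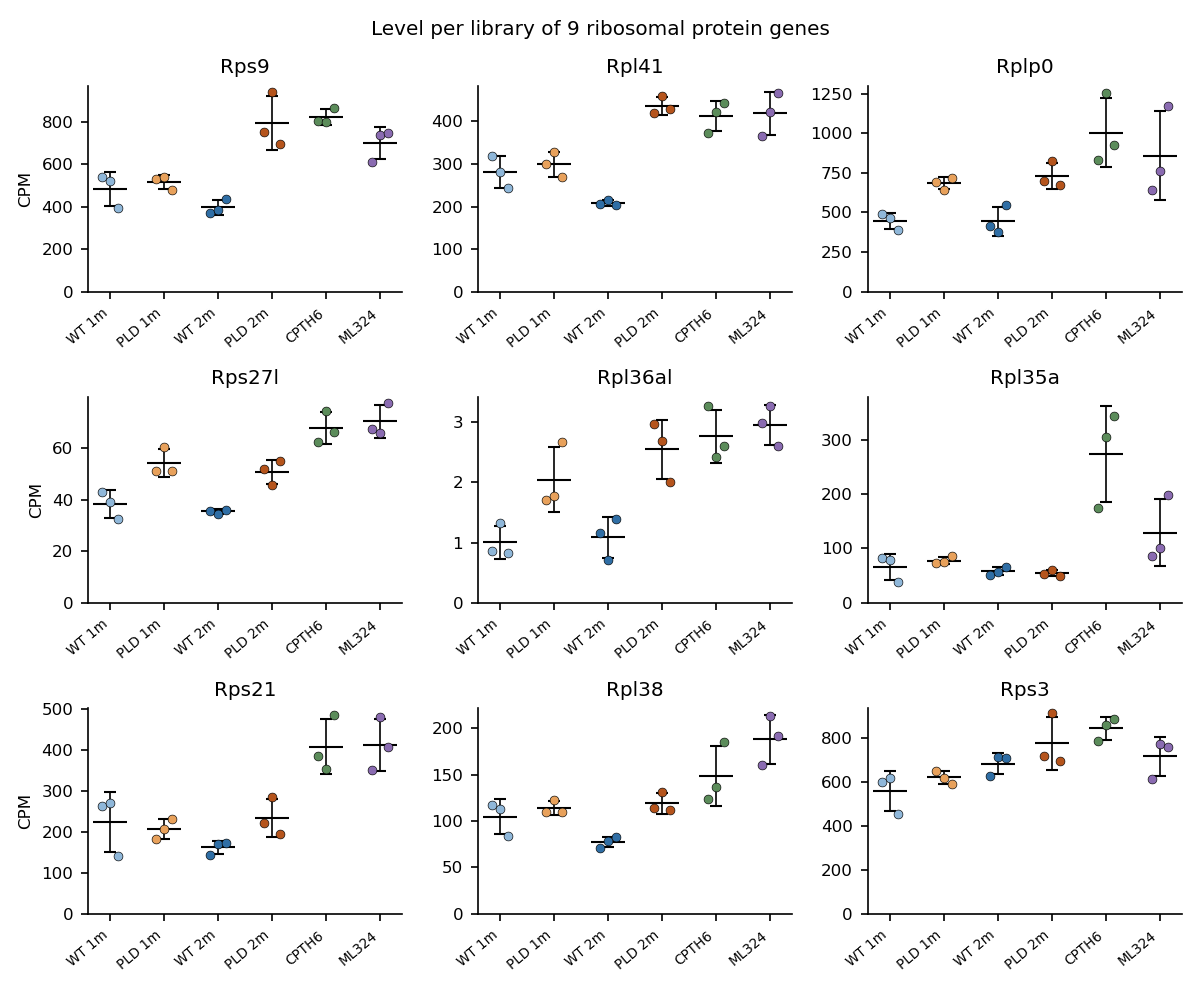
Level in CPM of 9 ribosomal protein genes in each library, by group, each panel from 0 on its own scale. Points are libraries, the bar is the mean and the whiskers are ± 1 SD with n = 3. For Rps9, Rpl41 and Rplp0 all PLD libraries at 2 months lie above all WT libraries of that time, Rpl35a and Rps21 are highest after the compounds, and Rps3 overlaps between WT and PLD at 2 months.

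CPTH6 and ML324 were compared with untreated PLD at 2 months, the nearest untreated group. Compound, age and the separate library preparation that the protocol describes cannot be told apart here. After CPTH6, 8 members were called higher and 0 lower, where 23.1% of all genes were called, 9.39% higher and 13.7% lower. The median over the members was 0.12, with -0.04 over all genes. After ML324, 6 members were called higher and 0 lower, where 19.4% of all genes were called, 7.96% higher and 11.4% lower, with a median of 0.02 over the members. These members make up 10% and 7.5% of those tested, near the background of genes called higher. Both comparisons use the same 3 PLD libraries.

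Rpl35a, a large subunit protein whose human gene is mutated in inherited red cell aplasia, had the largest change. It stood at 52.1, 60.3 and 49.6 CPM in untreated PLD at 2 months, at 175, 304 and 343 CPM after CPTH6 and at 85.2, 101 and 199 CPM after ML324. All treated libraries lay above all untreated ones, and the range within each compound was wide. The rise was 2.35 ± 0.34 after CPTH6 (adjusted p = 0.0016) and 1.30 ± 0.33 after ML324 (adjusted p = 0.0229), the latter 0.83 and not called without ML324 replicate 3. In the earlier groups Rpl35a had 81.99, 77.8 and 38.1 CPM in WT and 72.8, 74.0 and 85.7 CPM in PLD at 1 month.

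Rps21, a small subunit protein needed for rRNA maturation, had 222, 286 and 194 CPM in untreated PLD, 386, 355 and 485 CPM after CPTH6 and 352, 479.8 and 406 CPM after ML324. Neither treated group overlapped the untreated one, and Rps21 rose by 0.81 ± 0.18 (adjusted p = 0.0111) and 0.87 ± 0.18 (adjusted p = 0.0102). Rpl23a, a protein at the mouth of the exit tunnel, rose by 0.55 ± 0.13 and 0.54 ± 0.13 and Rps27l by 0.42 ± 0.11 and 0.52 ± 0.11, each after CPTH6 and ML324 in that order and without overlap with untreated PLD. Rps26, a protein at the mRNA exit, was called after CPTH6 at 0.61 ± 0.14 and stood at 0.36 ± 0.14 after ML324 (adjusted p = 0.103). Rpl3 and Rpl10 were called after CPTH6, at 0.43 ± 0.13 and 0.40 ± 0.12, and stood at 0.15 ± 0.13 and 0.11 ± 0.12 after ML324, where neither was called. Rpl38, a large subunit protein known for its part in translating Hox mRNAs, was called after ML324 at 0.71 ± 0.16 and stood at 0.33 ± 0.16 (adjusted p = 0.179) after CPTH6.

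Leaving out PLD replicate 1 or PLD replicate 3 at 2 months left 3 of the 8 calls after CPTH6 and 2 of the 6 after ML324. Without CPTH6 replicate 1, 2 or 3 there were 5, 4 and 4 members called higher, and without replicate 2 also 1 called lower, Rpl39 at -0.53. Without ML324 replicate 3 there were 3 called higher. Rpl36al, Rpl41 and Rps9, which led the 2-month comparison, were not called against untreated PLD after either compound. For instance, Rpl41 was at -0.07 ± 0.11 after CPTH6 (adjusted p = 0.695), and Rps9 at -0.13 ± 0.13 after ML324 (adjusted p = 0.521). Endothelial markers summed to 184 to 308 CPM after CPTH6 and 129 to 669 CPM after ML324, and stellate cell and fibroblast markers to 344 to 420.2 and 275 to 904 CPM, against 3212 to 7359 CPM in untreated PLD at 2 months. Their part in these results was not tested.

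After the compounds, the other lists gave the following counts, to be read against the same shares of all genes, and their difference from the members was not tested. Of 50 assembly and rRNA processing factors, 17 were called higher and 1 lower after CPTH6, and 16 higher and 0 lower after ML324, with Gnl2, a GTPase of large subunit assembly, at 0.42 and 0.52. Of 26 initiation factors, 10 were called higher and 1 lower after CPTH6 and 9 higher and 0 lower after ML324, with Eif5 at 0.78 ± 0.12 and 0.80 ± 0.12. Among 20 other TOP mRNAs, 3 were called higher after CPTH6 and 1 after ML324, and among 76 mitochondrial ribosomal protein genes 2 after each, with 0 lower in either list. Cdkn1a, a p53 target in the ribosome stress list, rose by 1.36 ± 0.16 and 1.13 ± 0.16, and Mdm2 rose by 0.48 ± 0.08 after CPTH6. After CPTH6, 2 of 22 genes of mTORC1 and TOP mRNA control were called higher and 4 lower, with a median of -0.10, and 3 of 10 Myc network genes were called higher and 2 lower. In these lists Mycn rose by 1.88 ± 0.27, from 1.72 ± 0.32 to 6.35 ± 1.48 CPM, and Sesn2 by 1.71 ± 0.30. After ML324, 1 of the 22 genes of mTORC1 and TOP mRNA control was called higher and 1 lower. Of the 10 Myc network genes, 1 was called higher and 3 lower after ML324.

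Between CPTH6 and ML324, edgeR called 0 of 80 members and 0% of the 15989 genes tested, with 4 members and 2008 genes at an unadjusted p under 0.05, and DESeq2 called 0 members and 268 genes. The median over the members was 0.07, with single values from -0.48 (Rps10) to 1.05 (Rpl35a). Rpl35a differed by 1.05 ± 0.35 (adjusted p = 0.312), and its libraries overlapped. Of the settings tried, it was called only without a filter on low counts, at 1.07. In 7 members all CPTH6 libraries lay above all ML324 libraries, against 12.3% of all genes, and in 1, the stalk gene Rplp2 at -0.28 ± 0.11 (adjusted p = 0.35), all lay below, against 7.73%.

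The difference between the compounds followed the annotated mRNA length, chosen as described above, within the members. Spearman's rho between the log2 fold change and mRNA length was 0.49 over the 80 members, which share the same 6 libraries, and 0.00 over the 13799 other genes with a length. The 19 members of at most 500 bases had a median of -0.07 and the 18 members of at least 1000 bases a median of 0.16. The 107 other genes of at most 500 bases had a median of -0.20. Short members on the lower side included Rpl38 (-0.38 ± 0.17), Rps29 (-0.37 ± 0.19) and Rps28 (-0.23 ± 0.14), none of which was called. Library by library, the deviation of the members from their mean had a rho with length of -0.37, -0.39 and -0.28 after ML324, of 0.05, 0.29 and -0.06 after CPTH6, and of 0.00, 0.04 and 0.14 in untreated PLD at 2 months. The 3 ML324 libraries held the lowest of the 18 values, followed by WT replicate 1 at 1 month at -0.18.

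**Figure D5:**
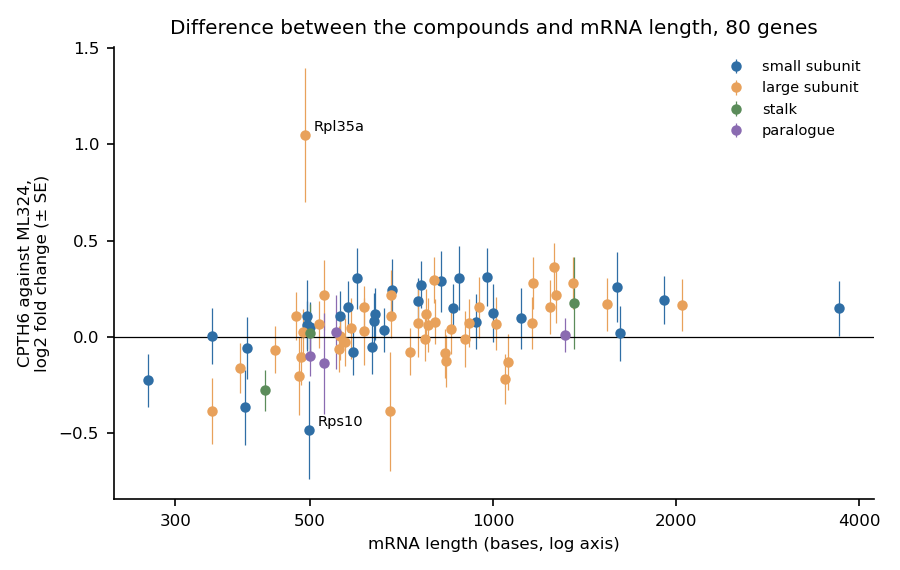
Log2 fold change of CPTH6 against ML324 (± SE, n = 3 libraries per group) against mRNA length in bases on a log axis, for the 80 tested members, coloured by role. No gene passed the test, shorter members lie lower (median -0.07 under 500 bases, 0.16 over 1000 bases), and Rpl35a lies highest at 1.05.

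Paralogues share a place in the ribosome with a partner gene, so their CPM per kb was followed as a percentage of the partner's. In WT, Rpl22l1 stood at 26.1% ± 4.62 (SD, n = 3) of the level of Rpl22 at 1 month and 23.4% ± 1.92 at 2 months. In PLD the percentages were 23.8% ± 2.12 and 21.2% ± 3.48. With CPTH6 the percentage was 16.3% ± 3.33 and with ML324 17.3% ± 0.651. The ML324 libraries (16.8% to 18.1%) lay below those of untreated PLD at 2 months (18.8% to 25.2%), and the CPTH6 libraries (12.9% to 19.5%) overlapped them. Rpl22l1 itself was called in no comparison. At 2 months Rpl7l1 stood at 12.9% ± 1.28 of the level of Rpl7 in WT and 8.14% ± 1.31 in PLD, without overlap. Rpl7 rose (0.58 ± 0.16) and Rpl7l1 did not pass the test. Rps27l stood at 9.18% to 11.1% of the level of Rps27 in the mean of every group. These percentages were not tested.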

How the data were processed

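The deposited values are raw read counts per gene, made by the authors with featureCounts 1.6.0 on GENCODE vM25 (build mm10) for paired, unstranded reads, without reads that map to several places or overlap several genes, per the file headers. The submitters' processing notes also name STAR 2.7.4a, SAMtools 1.12 and DESeq2 1.26.0. No 2 libraries were identical. Symbols came from GENCODE vM21. Counts were tested on the whole table with edgeR 4.0.16 (R 4.3.3) and its quasi-likelihood test with TMM factors, filterByExpr and Benjamini-Hochberg adjustment over all genes, at an adjusted p of 0.05, after a check on simulated data. One fit held the 12 untreated libraries, one the 6 treated ones, and one PLD at 2 months with the treated ones. SE is the log2 fold change over the root of the test's F value. CPM use TMM-scaled totals over 18 libraries, and log2 CPM a prior count of 2. Alternatives were DESeq2 1.42.0, other scaling, no filter, a replicate block, only the libraries compared, and leaving out each replicate. The members, the gene and marker lists and the named genes were chosen with earlier results of these data known. Genes are named as the 4 largest called changes in each direction of a comparison, the 3 highest and 3 lowest levels, the paralogue pairs, the stalk genes, Rpsa, Rps27a, Rpl5, Rpl11, Rps6, Rps3, Rps19, Rpl13a, Rpl38, and up to 3 called genes per list. Rpl30, Rps28, Rps29 and Rpl35 fall outside this and were named after their values were seen. Rpl18, Rps10 and Rpl24 fall outside it too. Some genes that the rule names are not reported here.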

Additional observations from a re-analysis of the deposited data

Results flagged for a closer look

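For 3 genes the interaction term of the edgeR fit was called positive. Rpl41 and Rps9 are the members among them, 2.5% of those tested, where 2.55% of all genes were called positive. In all, 77 of the 80 tested members had a positive value, with a median of 0.47. From 1 month to 2 months the log2 difference grew by 1.02 for Rpl41, by 0.94 for Rps9 and by 0.92 for Fau, the last of which encodes a ribosomal protein but lies outside the naming rule. Rpl41 was called in 18 of 19 alternative settings, Rps9 in 7 and Fau in 6. WT replicate 3 at 1 month, the lowest library of its group for 77 members, enters each of these values.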

How the results depend on the processing

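No called gene changed direction under these alternatives, and the cause of each change in count was not tested. PLD against WT at 1 month gave 1 member higher, but 3 with DESeq2, 0 with the replicate block, 0 in a fit of only the 6 libraries compared, 0 higher and 1 lower (Rps29) on leaving out a pair of WT libraries (replicate 3 of month 1 with replicate 1 of month 2), and 3 with the endothelial marker mean as a covariate. Leaving out one library gave 0 to 1 higher and 0 to 1 lower, with medians from 0.00 to 0.24. At 2 months the covariate gave 14 members in place of 63 and a median of 1.24, the replicate block 56, total counts without scaling factors 61 with a median of 0.50, and leaving out one library 42 to 62, with medians from 0.56 to 0.71. Between the times in PLD, total counts gave 9 higher in place of 4, DESeq2 17, the replicate block 2, the 6 libraries alone 24 higher and 1 lower, the fit without both WT libraries 27 higher and 1 lower, and the covariate a median of 0.69, and leaving out one library gave 0 to 1. In WT, DESeq2 gave 1 member lower, the fit without both WT libraries 1, the covariate a median of -0.42, and leaving out one library 0 to 4. The interaction gave 2 members, but 13 with DESeq2, 1 with the replicate block, 15 without both WT libraries, 0 with a median of 1.15 under the covariate, and 1 to 31 on leaving out one library. CPTH6 against ML324 gave 1 member without the filter on low counts. CPTH6 against PLD gave 4 in place of 8 with total counts and 3 to 7 higher with 0 to 1 lower (Rpl39, without CPTH6 replicate 2) on leaving out one library, and ML324 against PLD 2 to 8 in place of 6, with medians from -0.04 to 0.15. The covariate and the fit without both WT libraries were chosen after seeing the data. The labels do not say whether replicate numbers pair the samples. In the 12 untreated libraries 3 of 18 same-number pairs had a correlation of deviations over 0.1. Among PLD at 2 months and the compounds 3 of 9 did, and between the compounds alone 2 of 3, up to 0.256. PLD replicate 3 and WT replicate 1 at 2 months, with different numbers, had 0.25. These values do not decide whether samples are paired, and the replicate block rests on the shared number alone. Rpl36al, Rpl24 and Rps10 were tested on few counts, and Rpl3l, Rpl39l and Rpl10l did not pass the filter on low counts.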

Other observations

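Some values of single members stood out in ways that no comparison above was built for. Rpl3l, the muscle paralogue of Rpl3, had 49 counts in WT at 2 months, of which 31 fell in replicate 1, the library with counts in 40039 genes. It had 21 counts in WT at 1 month and 5 to 16 in the other groups. WT replicate 3 at 1 month was the lowest of its group for 77 of the 80 tested members. Rpl35a had 38.1 CPM in that library against 81.99 and 77.8 in the other replicates, and Rps21 had 140.1 against 264 and 269 CPM. Both genes were also the leading ones after the compounds.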
